A study of Mus musculus with 21 samples.

Results

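The genes described here are 30 genes of cholesterol synthesis and of its control by the SREBP transcription factors, followed in mouse brain with and without the copper-chelating drug trientine (TETA). They were found by symbol among the 21872 gene symbols of each of the 2 count tables, 1 per stage. All 30 were present in both tables, and all 30 passed the filter on low counts at both stages. They fall into 5 groups by role: 8 genes of the mevalonate steps, 3 of the squalene and lanosterol steps, 9 of the steps after lanosterol, 5 of SREBP control, and 5 further SREBP targets that mostly serve fatty acid synthesis. The set was chosen by the p-value of Dhcr7, among the smallest at embryonic day 18.5 (E18.5), and filled with genes of the same pathway, so the comparison of TETA with control at that stage is given as a description without tests for these genes.

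The series asks about copper in the developing brain. RNA sequencing of poly(A) RNA covered 21 mouse brain libraries in 4 groups. At E18.5 there were 6 control libraries (water) and 6 libraries labelled copper-deficient (TETA). At 7 weeks after birth there were 5 control libraries (water) and 4 copper-deficient libraries (TETA). The labels give brain as the tissue of every library, name no strain, and give no dose, route or duration of TETA, and the protocol for RNA extraction mentions 7-week males and their prefrontal cortex alone. Nothing in the labels says that the libraries came from separate animals, so the p-values measure the spread between these libraries, which may be partly technical.

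Cholesterol is built from acetyl-CoA through mevalonate, isoprenoids, squalene and lanosterol, and a series of sterol conversions then gives cholesterol itself. The brain makes its own cholesterol because plasma lipoproteins do not cross the blood-brain barrier, and growing neurons and myelinating oligodendrocytes are heavy users. SREBP proteins are held in the endoplasmic reticulum by Scap and the Insig proteins when sterols are plentiful. When sterols are low they are cut, enter the nucleus and bind sterol regulatory elements, usually beside a bound NF-Y factor, in the promoters of most genes of the pathway.

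Promoter sequences are shown for 5 members because many of the genes changed between the stages: Hmgcs1, Cyp51, Fasn and Dhcr7 were lower at 7 weeks and Ebp was higher. RefSeq promoters on GRCm38.p6 were matched by symbol for 24 of the 30 members. The windows ran from 250 bases before to 50 bases after the start site and were searched on both strands for TCACNCCAC (core letters of a sterol regulatory element), CACGTG (an E-box) and CCAAT (the box that NF-Y reads, ATTGG on the other strand). The sequences below hold the 250 bases before the start site, 5′ to 3′ on the strand of the gene, with the matched letters in capitals.
Hmgcs1, chr13:119690101-119690350, plus strand: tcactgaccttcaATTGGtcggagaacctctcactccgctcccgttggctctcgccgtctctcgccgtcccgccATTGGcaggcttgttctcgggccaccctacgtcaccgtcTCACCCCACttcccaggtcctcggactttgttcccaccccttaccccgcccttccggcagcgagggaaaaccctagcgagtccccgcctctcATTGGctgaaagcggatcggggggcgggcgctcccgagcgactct
Cyp51, chr5:4104698-4104947, minus strand: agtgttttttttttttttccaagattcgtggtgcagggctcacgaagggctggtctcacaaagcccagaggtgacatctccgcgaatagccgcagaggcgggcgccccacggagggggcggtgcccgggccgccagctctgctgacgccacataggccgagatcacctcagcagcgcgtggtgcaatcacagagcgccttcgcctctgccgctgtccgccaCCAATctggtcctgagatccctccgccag
Dhcr7, chr7:143822917-143823166, plus strand, the first of its 3 listed start sites: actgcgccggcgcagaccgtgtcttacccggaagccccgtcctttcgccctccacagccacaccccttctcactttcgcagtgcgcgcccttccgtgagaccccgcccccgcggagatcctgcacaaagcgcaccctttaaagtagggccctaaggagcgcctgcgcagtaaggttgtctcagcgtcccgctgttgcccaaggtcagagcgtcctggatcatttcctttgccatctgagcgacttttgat
Ebp, chrX:8193513-8193762, minus strand: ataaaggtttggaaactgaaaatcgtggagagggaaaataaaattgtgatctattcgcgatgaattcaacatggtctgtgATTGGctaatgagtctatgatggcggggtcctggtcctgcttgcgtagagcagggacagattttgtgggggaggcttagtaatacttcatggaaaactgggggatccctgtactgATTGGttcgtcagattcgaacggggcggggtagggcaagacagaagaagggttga
Fasn, chr11:120824548-120824797, minus strand: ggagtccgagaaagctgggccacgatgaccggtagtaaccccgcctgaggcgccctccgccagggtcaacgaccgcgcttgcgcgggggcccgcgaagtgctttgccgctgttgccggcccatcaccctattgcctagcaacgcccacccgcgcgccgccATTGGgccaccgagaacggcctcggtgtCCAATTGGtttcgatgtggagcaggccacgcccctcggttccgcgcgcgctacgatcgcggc

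The Hmgcs1 window was the only matched member promoter with TCACNCCAC, at 137 bases before the start site, and it also held CCAAT letters at 237, 176 and 45 bases before the start. GENCODE begins Hmgcs1 further on, at 119690379, so these distances hold for the RefSeq start site only. Cyp51 had a single CCAAT at 29 bases, Ebp had CCAAT letters at 170 and 55 bases, and Fasn had them at 90, 62 and 59 bases, where the last pair overlaps in the run CCAATTGG. The first Dhcr7 start site had none of the searched letters, the second had CACGTG at 164 bases, and the third had CCAAT at 85 and 49 bases. Over all members, CCAAT was found for 21 of the 24 matched genes (87.5%) against 41.1% of the 27025 symbols with a promoter of this length. CACGTG was found for 5 of 24 (20.8%) against 8.09%, and TCACNCCAC for 1 of 24 (4.17%) against 1.44%. These are letter matches in short windows and were not tested as binding sites.

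Levels are given as CPM, which is counts scaled to a common library size after TMM factors, and levels of different genes are compared only as CPM per kilobase of merged exon length. In control libraries at E18.5 the most abundant member per kilobase was Scd2, a stearoyl-CoA desaturase, at 252 ± 5.84 CPM per kb (SD, n = 6). Hmgcs1, the synthase that commits acetyl-CoA units to the mevalonate path, followed at 219 ± 8.48. Fads2, a fatty acid desaturase, was at 100.7 ± 2.25, and Fasn, the fatty acid synthase, at 78.9 ± 6.99. The ranges of these 4 genes did not overlap, whereas lower neighbours often could not be separated: Dhcr7 and Lss were both at 10.9 CPM per kb. Ebp was the lowest member at 3.94 ± 0.07, and its range overlapped that of Fdps at 4.34 ± 0.42.

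At 7 weeks Scd2 stood further ahead of the rest in control libraries, at 298 ± 6.04 CPM per kb (SD, n = 5). Hmgcs1 remained second at 84.4 ± 2.72, ahead of Fads2 at 55.2 ± 2.18 and Fads1 at 52.4 ± 2.91, whose ranges overlapped. Srebf2, the SREBP gene tied most closely to cholesterol synthesis, ranked 8 at E18.5 and 5 at 7 weeks, with 45.4 ± 2.65 at E18.5 and 40.5 ± 0.74 at 7 weeks. Fdps, which makes farnesyl pyrophosphate, was the lowest member at 7 weeks with 1.14 ± 0.11 CPM per kb. Fdps shares 1124 bases of exon with a gene on the same strand that has its own row in the tables, Gm43738, and Tm7sf2 shares 532 with Vps51, so their levels are uncertain.

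Libraries held 14678265 to 24308555 counts at E18.5, and 17838051 to 24035857 counts at 7 weeks. The least different pair of replicate libraries still differed by more than counting noise, with a chi-square per gene of 2.13. The tissue label was checked against marker genes. Neuron markers were abundant at both stages, with summed levels of 5404 to 5833 CPM at E18.5 and 7386 to 7782 CPM at 7 weeks. Oligodendrocyte markers were low at E18.5, where Mobp and Mog were near 0 at 0.021 and 0.050 CPM in control libraries. In the E18.5 table, 1940 rows at 0 in control replicate 1-1 were multiples of 11 in all other libraries and were divided by 11, and none of the 30 genes was among them.

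At E18.5 the members lay mostly slightly above control in the TETA libraries. The log2 difference was above 0 for 24 of the 30 genes, against 48.2% of the 13794 genes tested, and its median was 0.064, against -0.003 for all genes. For 10 members the difference was larger than 2 standard errors, all of them higher in TETA, where 2.62% of all genes were that much higher and 2.88% that much lower. No gene passed the adjusted threshold of 0.05 in the quasi-likelihood fit of edgeR (0% called), where 660 genes (4.78%) were at an unadjusted p under 0.05 and DESeq2 called 10. No member had groups that did not overlap, as 0.312% of all genes did. Because this contrast was used to choose the set, these values are descriptive.

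The 3 members with the largest difference relative to its standard error came from the mevalonate steps, the squalene step and the last step of the path. Dhcr7 (mm10 chr7:143823145-143848410, plus strand), the reductase that turns 7-dehydrocholesterol into cholesterol in the last step, had 64.1 CPM in the lowest control library, a median of 66.4 and 70.1 in the highest. In TETA libraries its lowest, median and highest values were 69.8, 76.9 and 80.5 CPM. Only the lowest TETA library, replicate 1-2, reached into the control range, just below control replicate 1-1. The log2 difference was 0.20 (SE 0.038), from 66.5 ± 2.14 to 76.2 ± 3.69 CPM (SD, n = 6 and 6), or 14.6% higher.

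Mvd (mm10 chr8:122433601-122443422, minus strand), the decarboxylase that ends the mevalonate steps with isopentenyl pyrophosphate, had 45.9, 53.1 and 57.9 CPM as lowest, median and highest control values. Its TETA values were 54.3, 60.0 and 65.6 CPM. The groups overlapped through the highest control library, replicate 3-2, and the lowest TETA library, replicate 1-2, and the log2 difference was 0.21 (SE 0.051). Fdft1 (mm10 chr14:63145150-63179578, minus strand), the squalene synthase that turns the path towards sterols, had 225, 243 and 250.3 CPM in control and 246, 260.3 and 264 CPM in TETA. The log2 difference of Fdft1 was 0.10 (SE 0.036), with overlap between the groups. Fdft1 shares 774 bases of exon with Ctsb on the opposite strand, and the strand setting of the counting is not given in the sources used here.

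By step of the path, the median log2 difference at E18.5 was 0.06 over the 8 mevalonate genes, 0.10 over the 3 squalene and lanosterol genes and 0.07 over the 9 genes after lanosterol. It was 0.04 over the 5 SREBP control genes and 0.07 over the 5 other targets. Within the mevalonate group Mvd was the only gene over 2 standard errors from 0, and Pmvk and Ggps1, which makes geranylgeranyl pyrophosphate for protein prenylation, were at -0.03 and -0.02. All 3 squalene and lanosterol genes were above 0, with Lss, the lanosterol synthase, at 0.12 (SE 0.045) and Sqle, the squalene epoxidase, at 0.06 (SE 0.038). After lanosterol, Hsd17b7, a ketosteroid reductase of sterol demethylation, was at 0.16 (SE 0.059) and the desaturase Sc5d at 0.10 (SE 0.040). Nsdhl, which acts in the same demethylation, differed by less than 0.01, and the isomerase Ebp was at -0.01 (SE 0.072).

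The 5 regulators lay between -0.02 and 0.09 at E18.5, none of them over 2 standard errors from 0. Srebf2 was at 0.05 (SE 0.041), Srebf1 at -0.02 (SE 0.054), Scap at 0.04 (SE 0.046), Insig1 at 0.09 (SE 0.047) and Insig2 at -0.01 (SE 0.058). Of the other targets, the sterol carrier Stard4 was at 0.12 (SE 0.044), Fasn at 0.13 (SE 0.057), Fads2 at 0.07 (SE 0.035), Scd2 at 0.04 (SE 0.035) and Fads1 at 0.03 (SE 0.034). Over a further list of 27 genes of cholesterol synthesis, uptake, transport and turnover, 26 were tested and 18 were above 0, with a median of 0.04.

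**Figure D1:**
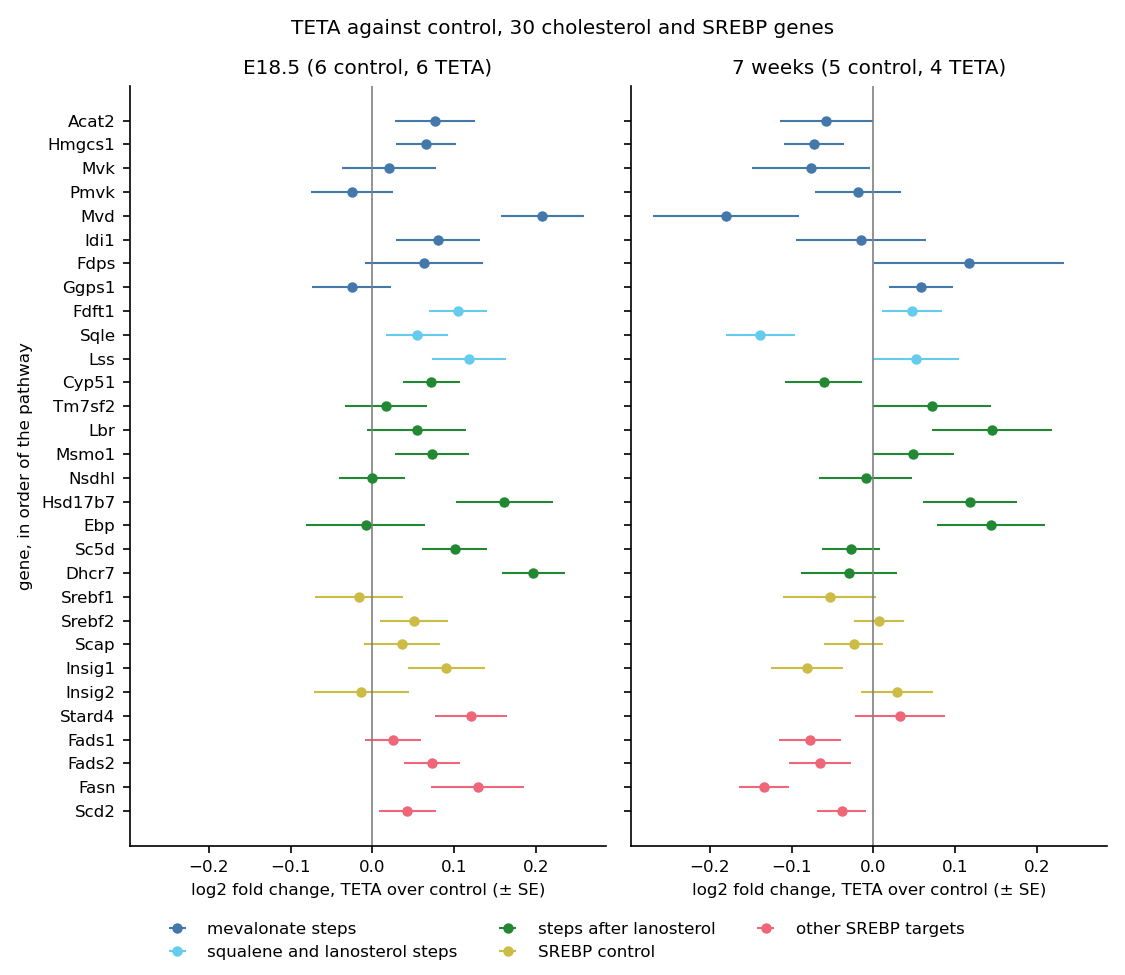
Log2 fold change of TETA over control (points, with bars of 1 standard error) for the 30 genes in order of the pathway, at E18.5 on the left (6 and 6 libraries) and at 7 weeks on the right (5 control and 4 TETA). At E18.5, 24 points lie right of 0, and at 7 weeks 12 do.

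A score per library was taken as the mean over members of log2 CPM, each gene centred over the libraries of its stage. At E18.5 the control libraries scored from -0.073 to -0.001 and the TETA libraries from -0.007 to 0.076. TETA replicates 1-1 and 1-2 fell within the control range, and the other 4 TETA libraries lay above it. The summed level of 4 endothelial markers also lay higher in TETA libraries, at 133 to 149 CPM against 118 to 134 CPM in control, with 3 of the 4 genes above 0, none of the 4 at 0 and none called. Its part in the differences of the sterol genes was not tested. In RNA from whole tissue, fewer cells of a type and less RNA per cell cannot be told apart.

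**Figure D2:**
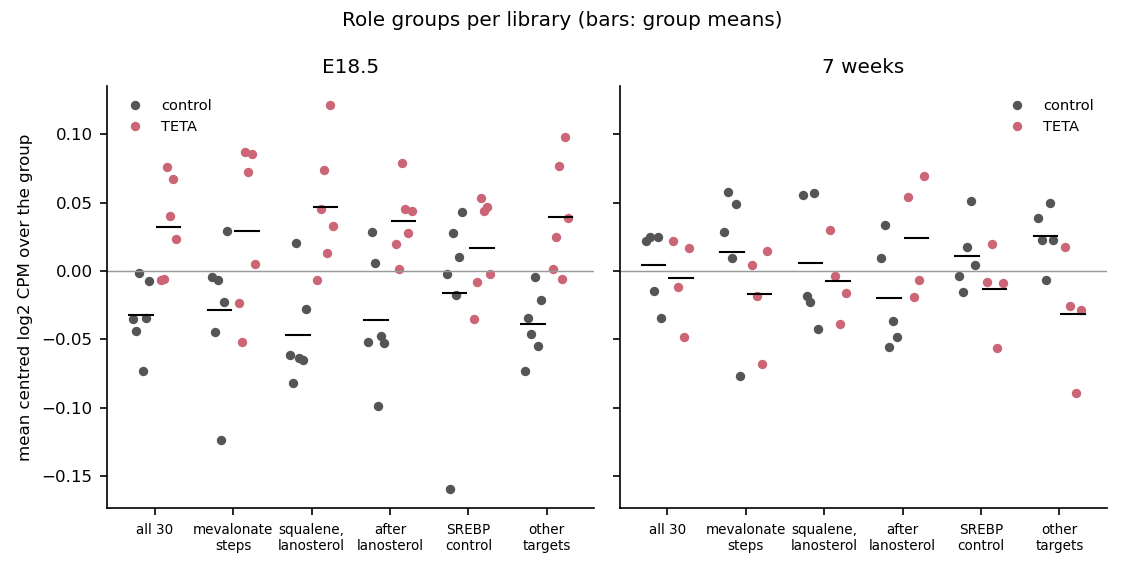
Mean centred log2 CPM per library over all 30 genes and over each role group, at E18.5 (left) and 7 weeks (right), with control libraries in grey, TETA libraries in red and group means as bars. At E18.5 the TETA means lie above the control means in every group and the libraries overlap, while at 7 weeks the order of the means differs between groups.

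At 7 weeks, 2 of the 30 genes were lower in TETA, Fasn and Sqle, and none was higher. Over the 14240 genes tested, 9.96% were called, 4.28% lower and 5.67% higher, so the members' share of 6.67% called was near the background. A gene was called at an adjusted p under 0.05 (Benjamini-Hochberg, over all genes tested, from the quasi-likelihood fit of edgeR). At an unadjusted p under 0.05 there were 3 members, against 24% of all genes, and DESeq2 also called none higher. The median log2 fold change of the members was -0.02, against 0.00 for all genes, with 12 above 0 and 18 below, where 50.1% of all genes were above.

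Fasn (mm10 chr11:120805846-120824547, minus strand), which makes palmitate, had 373, 379, 369, 399 and 384 CPM in control replicates 1 to 5. In TETA replicates 1 to 4 it had 351, 357, 337 and 342 CPM. Every TETA library lay below every control library, as in 4.91% of all genes. The log2 fold change of Fasn was -0.13 (SE 0.031, adjusted p = 0.0073 by edgeR), or 8.88% lower, from 381 ± 11.7 to 347 ± 9.06 CPM (SD, n = 5 and 4). It remained called in all 9 fits that left out a library, with adjusted p-values of 0.0069 to 0.0362.

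Sqle (mm10 chr15:59315077-59331192, plus strand), which starts the oxygen-dependent part of sterol synthesis, had 67.7, 68.0, 72.4, 69.2 and 66.6 CPM in control replicates 1 to 5. In TETA replicates 1 to 4 it had 65.3, 60.6, 58.7 and 65.1 CPM. The groups did not overlap, though the highest TETA and lowest control libraries were close. The log2 fold change of Sqle was -0.14 (SE 0.042, adjusted p = 0.0409 by edgeR), from 68.8 ± 2.21 to 62.4 ± 3.29 CPM. This call is marginal: it was lost when any of control replicates 1 to 4 or TETA replicates 2 or 3 was left out, with edgeR adjusted p-values of 0.0343 to 0.164 over the 9 such fits. It was also lost when libraries were scaled by their totals without TMM factors, at an adjusted p of 0.0687.

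Dhcr7 was not called at 7 weeks. It had 36.3, 37.3, 34.6, 34.7 and 33.9 CPM in control replicates 1 to 5, and 34.4, 31.6, 32.6 and 39.8 CPM in TETA replicates 1 to 4. The TETA libraries spread around the control range on both sides, with replicate 4 the highest of all 9. The log2 fold change was -0.03 (SE 0.059, adjusted p = 0.813 by edgeR). Mvd, the other gene furthest from control at E18.5, had 22.9, 23.9, 23.6, 28.6 and 17.9 CPM in control and 20.8, 21.4, 19.4 and 20.7 in TETA, for a log2 fold change of -0.18 (SE 0.089, adjusted p = 0.224 by edgeR). Mvd varied widely among the controls, where replicates 4 and 5 held the extremes on either side of all TETA libraries, and without control replicate 5 it was called lower.

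**Figure D3:**
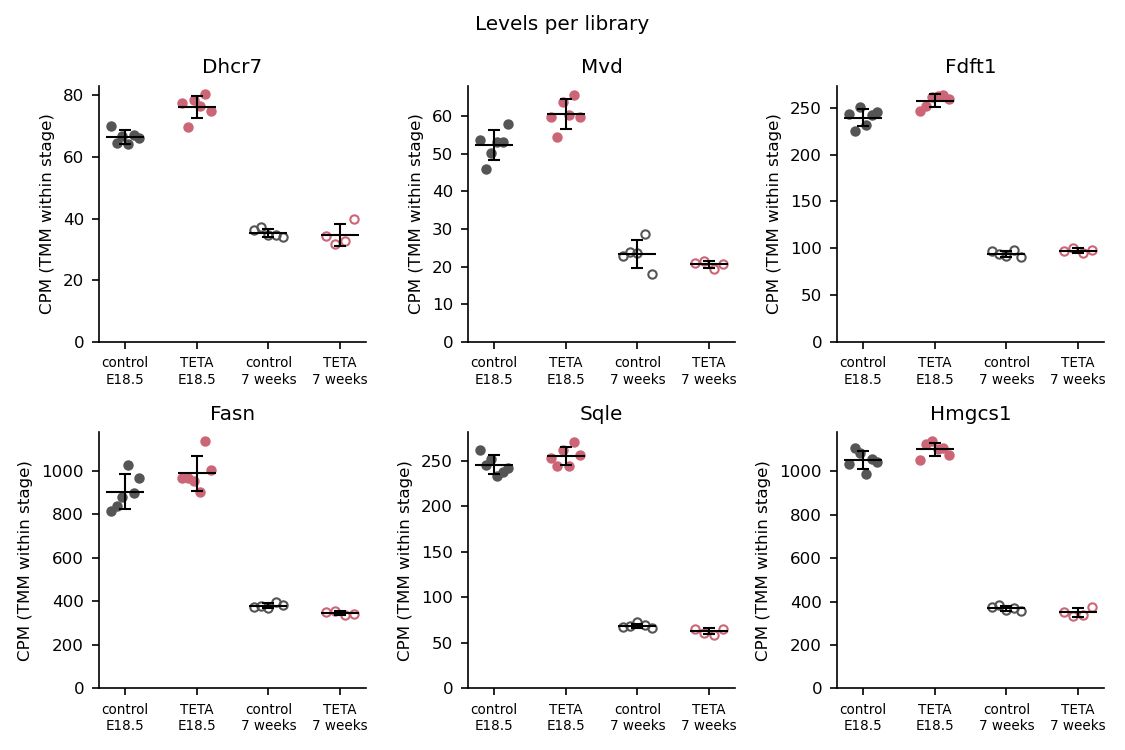
TMM-scaled CPM in each library for Dhcr7, Mvd, Fdft1, Fasn, Sqle and Hmgcs1 (points), with the mean and 1 SD of each group, scaled within each stage and with axes that start at 0. Stage separates the libraries of all 6 genes by far more than treatment does, and at 7 weeks the TETA libraries of Fasn and Sqle all lie below the controls.

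No other step of the path was called at 7 weeks. Among the mevalonate genes the log2 fold changes ran from -0.18 for Mvd to 0.12 for Fdps, with Hmgcs1 at -0.07 (SE 0.036). Fdft1 and Lss, on either side of Sqle in the path, were both at 0.05. After lanosterol they ran from -0.06 for Cyp51, the lanosterol demethylase, to 0.14 for Lbr, a sterol reductase of the nuclear envelope, and none of the 9 was called. Hsd17b7 was at 0.12 (SE 0.058) and Ebp at 0.14 (SE 0.066), the 2 members that were higher by more than 2 standard errors, where 13.8% of all genes were, while 4 members were lower by that much, where 12% of all genes were. The SREBP control genes ran from -0.08 for Insig1 to 0.03 for Insig2, with Srebf2 at 0.01 (SE 0.030), and none of the 5 was called.

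Of the 5 other SREBP targets, 4 were below 0 at 7 weeks. Fads1 was at -0.08 (SE 0.038), Fads2 at -0.07 (SE 0.038) and Scd2 at -0.04 (SE 0.030), all uncalled beside Fasn. Of the further list of 27 genes, 2 were lower and none was higher, a share of 7.41% called against the 9.96% of all genes. Acaca, the acetyl-CoA carboxylase that supplies malonyl-CoA to Fasn, had 116, 115, 120.0, 119 and 114 CPM in control replicates 1 to 5 and 104, 107, 106 and 109.9 CPM in TETA replicates 1 to 4. Those groups did not overlap, and the log2 fold change of Acaca was -0.13 (SE 0.033, adjusted p = 0.0182 by edgeR), with the call lost without TETA replicate 1 (adjusted p = 0.0625 by edgeR) or TETA replicate 3 (adjusted p = 0.0553 by edgeR).

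Markers of several cell types differed between the 7-week groups beside these genes. All 7 striatal neuron markers were lower in TETA, with a median log2 fold change of -1.34 and summed levels of 229 to 320 CPM against 572 to 707 CPM in control. Of 6 astrocyte markers, 3 were lower, with summed levels of 4980 to 5315 CPM against 5426 to 6264 CPM. Slc1a2 made up most of that sum, with means of 3383 CPM in TETA and 3905 CPM in control. Aqp4 hardly differed, at 103.3 and 103.9 CPM, and Gja1 alone had a higher mean in TETA, at 175.7 against 164.1 CPM. The 7 oligodendrocyte markers were all below 0 but none was called, with summed levels of 5772 to 6763 CPM against 6428 to 7588 CPM. No marker of these 3 lists was at 0 in either group, and their part in the changes of Fasn, Sqle and Acaca was not tested. Control replicate 4 stood apart on choroid plexus markers, of which 4 of 5 could be tested: their summed level was 57.7 CPM in that library, 3.56 to 4.13 CPM in the other controls and 2.16 to 5.02 CPM in TETA. It also held the highest control values of Fasn and Mvd. Without it Fasn was still called lower, at -0.12 (adjusted p = 0.0255 by edgeR), as was Acaca at -0.12 (adjusted p = 0.0481 by edgeR), and Sqle was not, at -0.14 (adjusted p = 0.0779 by edgeR).

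Set side by side, 15 of the 30 genes were above 0 at E18.5 and below 0 at 7 weeks, 9 were above 0 at both stages, 3 were below 0 at both and 3 were below 0 and then above. Fasn was 9.36% higher at E18.5 and 8.88% lower at 7 weeks. Sqle was 3.89% higher and then 9.13% lower, and Mvd 15.5% higher and then 11.8% lower. Hsd17b7 was above 0 at both stages, by 11.8% and 8.51%. Taken singly, 24 of the 30 genes were above 0 at E18.5 and 12 at 7 weeks. How often all genes showed each pattern was not counted, and the E18.5 contrast was used to choose the set. Whether the effect of TETA differed between the stages was not tested.

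Most members fell between E18.5 and 7 weeks. In control libraries 20 of the 30 genes were lower at 7 weeks than at E18.5 and 5 were higher, with a median log2 fold change of -0.78 against -0.02 over all genes. Most genes differ between these stages: 89.5% of 14375 genes were called, 45.5% lower and 44% higher, in the edgeR fit at the same threshold. A log2 fold change under -1 was seen in 10 members (Acat2, Hmgcs1, Mvd, Fdps, Fdft1, Sqle, Lss, Cyp51, Nsdhl and Fasn) and in 17.8% of all genes. None of the members was above 1, as 22.8% of all genes were. The libraries of the stages did not overlap for 19 of the lower members, where 40.5% of all genes were lower without overlap, and for 4 of the higher members, where 39.7% were higher. The stages were held in separate tables, and stage cannot be told apart from table, brain region or sex.

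The largest falls in control libraries were at the entry, in the middle and at the isoprenoid branch of the path. Acat2 (mm10 chr17:12942890-12960747, minus strand), the cytosolic thiolase of the first step, had 149, 155 and 161 CPM as lowest, median and highest values at E18.5. At 7 weeks its 5 control values were 31.3, 36.2, 33.4, 35 and 29.9 CPM. No library came near the other stage, and the log2 fold change of Acat2 was -2.23 (SE 0.047, adjusted p = 1.19e-22 by edgeR), a 4.68-fold lower level. Acat3 is a near copy of Acat2, so reads could have been shared between them.

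Fdps (mm10 chr3:89093588-89101959, minus strand) had 15, 18.6 and 20.3 CPM as lowest, median and highest control values at E18.5. At 7 weeks its control values were 4.59, 5.17, 5.37, 4.20 and 4.62 CPM, all below the E18.5 range, for a log2 fold change of -1.93 (SE 0.086, adjusted p = 3.57e-16 by edgeR). Because Fdps shares 1124 bases of exon with Gm43738 on the same strand, the size of this fall is uncertain. Sqle had 224, 233 and 250.3 CPM at E18.5 and 71.4, 71.6, 76.2, 73.0 and 70.2 CPM at 7 weeks. The fall of Sqle was -1.69 on the log2 scale (SE 0.039, adjusted p = 5.82e-22 by edgeR), or 3.24-fold. Values here were scaled over the libraries of both stages and differ slightly from those scaled within a stage.

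Few members rose with stage. Ebp (mm10 chrX:8185329-8193512, minus strand), the sterol isomerase after lanosterol, had 8.93, 9.08 and 9.39 CPM as lowest, median and highest control values at E18.5 and 15.6, 18.3, 17.5, 17.2 and 17.4 CPM at 7 weeks. Its log2 fold change was 0.92 (SE 0.061, adjusted p = 8.84e-13 by edgeR), while Nsdhl before it and Dhcr7 after it in the path were lower. Insig2 (mm10 chr1:121304353-121332589, minus strand), one of the proteins that retain SREBP, had 25, 28.2 and 31.5 CPM and then 45.6, 50.2, 50.8, 49.3 and 45.7 CPM. The stages did not overlap, and the log2 fold change of Insig2 was 0.75 (SE 0.056, adjusted p = 7.28e-12 by edgeR).

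Fads1 (mm10 chr19:10182888-10196877, plus strand), a desaturase of long-chain polyunsaturated fatty acids, had 170, 179 and 183 CPM in control at E18.5 and 261, 242, 238, 248 and 272 CPM at 7 weeks. Its log2 fold change was 0.51 (SE 0.038, adjusted p = 8.63e-12 by edgeR), while its neighbour in function Fads2 fell by 0.87 on the log2 scale (SE 0.035). Dhcr7 fell from 61.4, 63.4 and 66.9 CPM as lowest, median and highest values to 38.2, 39.3, 36.4, 36.6 and 35.8 CPM. The stages of Dhcr7 did not overlap, with a log2 fold change of -0.77 (SE 0.042, adjusted p = 2.22e-14 by edgeR), or 1.70-fold lower. Its E18.5 control libraries are among those whose values led to the choice of these genes, so this p-value is not independent of that choice.

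By role, 7 of the 8 mevalonate genes were lower at 7 weeks in control libraries, with Ggps1 at -0.02 (SE 0.043) the exception. All 3 squalene and lanosterol genes were lower, from -1.21 for Fdft1 to -1.69 for Sqle. After lanosterol 6 of 9 were lower, from -0.49 for Msmo1 to -1.51 for Cyp51, while Hsd17b7 was at -0.09 (SE 0.065) and Sc5d at -0.00 (SE 0.039) without passing the test. Of the regulators, Srebf2 was lower by a small margin, -0.17 (SE 0.039), Srebf1 at -0.02 (SE 0.056) and Insig1 at 0.01 (SE 0.048) did not pass, and Insig2 was higher. Scap passed narrowly, at 0.10 (SE 0.046, adjusted p = 0.0496 by edgeR). With library totals in place of TMM factors Scap was no longer called, Ggps1, Hsd17b7, Sc5d, Srebf1 and Insig1 were called lower, and the median of all genes moved from -0.02 to -0.17. The narrow fall of Stard4, at -0.12 (SE 0.053, adjusted p = 0.0416 by edgeR), was not called by DESeq2. The call of Scap was lost without E18.5 replicate 1-2 or 2-1 or 7-week replicate 2, 3, 4 or 5, and that of Stard4 without E18.5 replicate 1-1, 1-2, 2-1 or 2-2 or 7-week replicate 1, 2 or 5. Among the other targets, Fads2 and Fasn were lower and Fads1 and Scd2 higher.

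**Figure D4:**
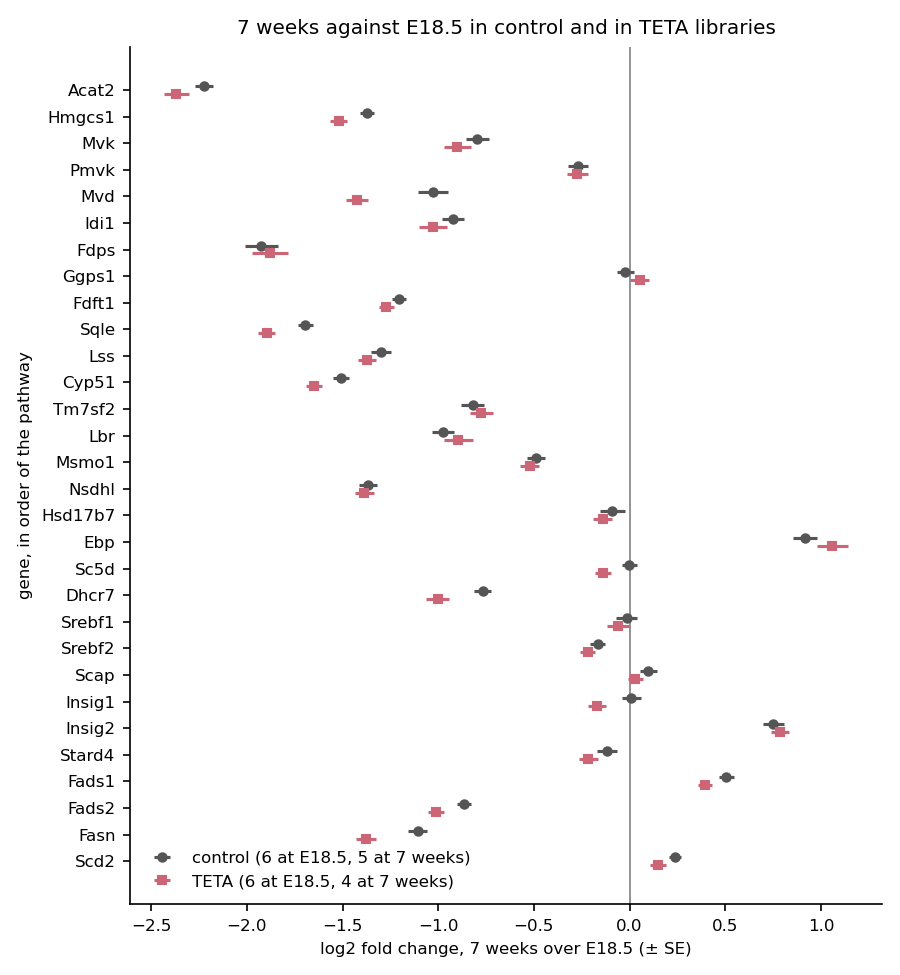
Log2 fold change of 7 weeks over E18.5 (points, with bars of 1 standard error) for the 30 genes in order of the pathway, in control libraries (grey circles) and in TETA libraries (red squares). Most points lie left of 0, from -2.23 for Acat2 in control. Ebp, Insig2, Fads1, Scd2 and, by a small margin, Scap lie to the right in both.

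The same contrast in TETA libraries, which shares no library with the control one, gave 23 lower and 4 higher of the 30 genes, with a median of -0.83. Of 14337 genes tested there, 88.5% were called, 44.8% lower and 43.7% higher. In both contrasts 20 members were lower and 4 were higher (Ebp, Insig2, Fads1 and Scd2), and none was called in opposite directions. Hsd17b7, Sc5d and Insig1 were called lower in TETA libraries only, Scap higher in control libraries only, and Ggps1 and Srebf1 in neither, and whether these contrasts differ was not tested. The call of Hsd17b7 in TETA libraries was lost when only genes with a mean of at least 50 counts were kept. With library totals in place of TMM factors, Scd2 was no longer called in TETA libraries, and Srebf1 and Scap were called lower. Acat2 was at -2.37 (SE 0.063), Fdps at -1.88 (SE 0.092), Sqle at -1.90 (SE 0.046), Ebp at 1.06 (SE 0.081), Insig2 at 0.79 (SE 0.048) and Fads1 at 0.39 (SE 0.037) in TETA libraries. Dhcr7 fell by 1.00 on the log2 scale there (SE 0.059), from 73.5 ± 3.53 to 36.6 ± 4.04 CPM (SD, n = 6 and 4), and its E18.5 TETA libraries are among those whose values led to the choice of these genes.

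The further cholesterol genes moved in both directions with stage. In control libraries 16 of 27 were higher at 7 weeks and 10 lower, where 44% of all genes were higher and 45.5% lower. Acaca was lower, at -1.09 (SE 0.036). Among genes of sterol transport and turnover, the higher ones included the lipid carrier Apoe at 3.42 (SE 0.064), the neuronal cholesterol hydroxylase Cyp46a1 at 3.33 (SE 0.042) and the transporter Abcg1 at 1.94 (SE 0.049), while the transporter Abca1 was lower at -0.32 (SE 0.047). Scd1, a stearoyl-CoA desaturase, was higher at 2.18 (SE 0.047). These genes were picked for their known roles after their values were seen.

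Cell type markers moved with stage beside all of these genes. In control libraries all 7 oligodendrocyte markers were higher at 7 weeks, with a median log2 fold change of 8.30 and summed levels of 63.6 to 73.9 CPM at E18.5 and 6428 to 7588 CPM at 7 weeks. All 6 astrocyte markers were higher, with a median of 2.68 and sums of 528 to 609 CPM and 5426 to 6264 CPM. All 5 microglia markers were higher, with a median of 3.12 and sums of 31.2 to 35.9 CPM and 230.5 to 256 CPM. The part of these cell types in the stage changes of the sterol genes was not tested. Of the 16 members lower in both contrasts that had a promoter, 14 held CCAAT, as in the windows shown for Hmgcs1, Cyp51 and Fasn. The window shown for Dhcr7, also a lower member, held no CCAAT, and Dhcr7 was counted through a later start site. Both of the higher members with a promoter held CCAAT, of which Ebp is shown. The share over all matched members was 21 of 24 (87.5%), against 41.1% of all symbols. Whether CCAAT was tied to the direction of the stage change was not tested.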

How the data were processed

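Poly(A) RNA libraries were sequenced from mouse brain (E18.5: 6 control, 6 TETA; 7 weeks: 5 control, 4 TETA), grouped by the treatment and age in the labels. The authors deposited whole-number counts per gene symbol, 1 table per stage, with 21872 symbols each. STAR 2.7.1a, featureCounts 2.0.1 and mm10 are named in the submitters' processing notes, and the strand setting and annotation of the counting are not given in the sources used here. Total counts ran from 14678265 to 24308555 per library, and replicate libraries differed by more than counting noise, so the spread between libraries limits the precision as well as depth.

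In the E18.5 table, 1940 rows at 0 in control replicate 1-1 were divided by 11, because all other libraries held multiples of 11 there. Each stage was fitted alone, and the stages were joined for control and for TETA libraries separately. Genes were kept by filterByExpr (minimum count 10), scaled by TMM and tested with edgeR 4.0.16 (quasi-likelihood test, R 4.3.3), with Benjamini-Hochberg adjustment over all genes at 0.05. The SE is the log2 fold change divided by the square root of F. Library scores were taken from log2 CPM (prior count 2). Exon lengths and gene coordinates came from GENCODE on GRCm38 (mm10), and promoters from RefSeq on GRCm38.p6. On simulated counts with 200 changed genes, a log2 change of 0.2 was recovered for 33.5% at 7 weeks (14240 genes) and 35% at E18.5 (13794 genes), and a change of 0.5 for 74.5% and 87.5%.

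Members and lists were chosen with earlier results of these data known. Values per library are given for Dhcr7, members past the threshold at 7 weeks, the 3 with the largest log2 difference over SE at E18.5, and the 3 largest rises and falls with stage in control. From the further list, genes past the threshold at 7 weeks are named, except that some genes of that list are not reported here. Other genes are named to complete a role group and were chosen after their values were seen. Alternatives were DESeq2 1.42.0, library totals without TMM factors, 2 other filters, leaving out libraries, a replicate block, summed libraries and the counts as deposited.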

Additional observations from a re-analysis of the deposited data

Results flagged for a closer look

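For the 5 SREBP control genes, control replicate 1-2 at E18.5 lay apart from the other 5 controls. Its score, the mean centred log2 CPM over Srebf1, Srebf2, Scap, Insig1 and Insig2, was -0.16, and the others ran from -0.018 to 0.043. The gap was 0.699 of the whole range of the group, above Dixon's 95% critical value for 6 samples. It was the 1 set with a library apart among 64 sets examined in groups of 4 to 6 libraries, where chance at 1 in 20 would give 3.2. The sets covered Dhcr7, Mvd, Fdft1, Fasn, Sqle, Acat2, Fdps, Ebp, Insig2 and Fads1, and the scores over all members and each role group. The other members were not examined.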

How the results depend on the processing

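At 7 weeks, library totals without TMM factors left 1 member lower (Fasn) in place of 2, called 1 gene of the further list higher in place of 0, and raised the share of all calls that were higher from 57% to 67.6%. DESeq2 called 4 genes of the further list lower in place of 2. Leaving out each library in turn gave 1 to 3 members lower, 1 to 4 genes of the further list lower and 927 to 1392 genes called, the lowest without TETA replicate 3. The E18.5 contrast was used to choose the genes, so its counts of members are a description and not a test of them. There DESeq2 called 1 member higher in place of 0, as did the fit without control replicate 1-1 and both libraries numbered 1-2. Leaving out each E18.5 library gave 0 to 1 members higher (1 without TETA replicate 1-2) and 0 to 7 genes called. In each of these fits the member was Dhcr7. Its p-value in this same contrast led to the set, so these calls add no evidence for it. All genes called at E18.5 numbered 0 in the reported test, 10 with DESeq2, 3 without those 3 libraries and 2 with libraries of the same first number summed. Between stages, library totals without TMM factors moved the median of the members to -0.93 in control and -0.95 in TETA libraries, and that of all genes to -0.17 and -0.14. The cause of these shifts was not tested.

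The replicate numbers shared by control and TETA libraries were not taken as pairs, since the correlation of their deviations was not over 0.1 in every pair: it ran from -0.069 to -0.030 over 4 pairs at 7 weeks, with 0 over 0.1, and from -0.275 to 0.284 over 6 pairs at E18.5, with 3 over 0.1. With the number as a replicate block, 2 members were lower at 7 weeks, Mvd and Fasn, and Sqle was at -0.15 (adjusted p = 0.0723 by edgeR). The block fit also left out control replicate 5, which has no TETA library of its number. Without that library and with no block, Mvd was called as well, so the call of Mvd cannot be credited to the block. No member was called at E18.5 with that block, nor with the first part of the number as a block, which was added after seeing the data. In simulated counts with 200 changed genes, a log2 change of 0.2 was recovered for 35% of those genes at E18.5 and 33.5% at 7 weeks. The median log2 differences of the members were smaller in size, at 0.064 and -0.02. The reported test called 1418 genes at 7 weeks, far more than were changed in the simulation. The simulation therefore cannot say how often changes of the size seen for the members would be detected.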
